A study of Mus musculus with 18 samples.

Results

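A set of 10 genes of the oligodendrocyte lineage was followed through TRAP-RNAseq of the Cx3cr1-NuTRAP mouse brain. The genes were selected by symbol from the 36172 genes of the deposited matrix, and they are Pdgfra, Cspg4, Gpr17, Bmp4, Neu4, Enpp6, Olig1, Olig2, Sox10 and Pllp. They were chosen with earlier results of these data known, and Gpr17 and Pllp had stood out as lower after lipopolysaccharide (LPS) in the input. For that reason the LPS contrast in the input is described below without a test for these 10 genes. Tests are given for the other contrasts, which share animals and, for the comparison of fractions, libraries with it.

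The mice were Cx3cr1-cre/ERT2+; NuTRAP+, with 1 copy of each transgenic allele, and all had received tamoxifen at about 3 months of age. The Cre is driven by the Cx3cr1 promoter, and after tamoxifen the cells that use it, in brain chiefly microglia, make ribosomes tagged with EGFP. LPS, a component of the wall of Gram-negative bacteria (5 mg/kg, intraperitoneal), or phosphate-buffered saline (PBS) was given 3 to 4 weeks later, and brain was taken at 24 h. Each of 9 animals (5 LPS, of which 4 female, and 4 PBS, of which 2 female) gave 2 kinds of RNA. Input was RNA of the cleared homogenate of 1 hemisphere, the supernatant after centrifugation. Positive was RNA bound to tagged ribosomes after anti-GFP pulldown. The input library of LPS animal 271 held 1252 counts and was left out, which left 4 animals each for Input PBS, Input LPS and Positive PBS, and 5 for Positive LPS. These 17 libraries held 22968939 to 35123345 counts. The pulldown enriched microglial RNA. All 8 microglial markers tested rose in the Positive fraction, with a median log2 fold change of 4.22 in PBS and 4.03 in LPS animals. RNA of other cells remained. In PBS animals 7 of 8 endothelial markers were called higher (median 1.45). Of 8 neuronal markers 2 were called higher and 0 lower (median 0.03). Of 8 astrocyte markers 1 was called higher and 3 lower (median -0.17).

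Oligodendrocyte precursor cells (OPCs) divide and migrate through the adult brain, carry the surface proteins Pdgfra and Cspg4 (NG2), and depend on platelet-derived growth factor for their survival and division. As they commit to differentiation they lose these proteins, pass through a short premyelinating stage marked by Gpr17 and, later, Enpp6, and then switch on the genes of compact myelin. Olig1, Olig2 and Sox10 are transcription factors present through the lineage. Bone morphogenetic protein signalling, of which Bmp4 is a ligand, is known to hold back this differentiation.

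The genes lie on 8 chromosomes of the mm10 build. The precursor surface genes are Pdgfra (chromosome 5, 75152291 to 75198204, plus strand), the receptor for platelet-derived growth factor A, and Cspg4 (chromosome 9, 56865104 to 56899870, plus strand), a chondroitin sulfate proteoglycan. The genes of committed precursors and newly formed cells are Gpr17 (chromosome 18, 31942999 to 31949636, minus strand), a G protein-coupled receptor, Bmp4 (chromosome 14, 46383520 to 46390599, minus strand), Neu4 (chromosome 1, 94020493 to 94028330, plus strand), a sialidase, and Enpp6 (chromosome 8, 46986925 to 47094895, plus strand), a choline-specific phosphodiesterase. Olig2 (chromosome 16, 91225550 to 91228677, plus strand) and Olig1 (chromosome 16, 91269769 to 91271939, plus strand) are neighbours, with 41092 bases between them. Sox10 is at chromosome 15, 79154913 to 79164490, minus strand, and Pllp, which encodes plasmolipin, a membrane protein of myelin, is at chromosome 8, 94674895 to 94696242, minus strand. Gpr17 lies within Lims2, a gene for a LIM-domain protein of cell adhesions, on the opposite strand. Reads were aligned by strand, which keeps the pair apart as far as the library kit marked the strand.

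All 10 genes were above 20 normalised counts in every library of at least 1 group, so all were tested among 14803 genes. A normalised count is the deposited estimated count divided by a size factor for the depth of the library. Per kilobase of merged exon length, Input PBS levels (mean ± SD, n = 4) ran from Olig1 at 2237 ± 508 normalised counts per kb through Pllp at 886 ± 299.7, Olig2 at 535 ± 116 and Sox10 at 477 ± 97.6. Gpr17 followed at 191 ± 26.1 and Pdgfra at 162 ± 10.3, then Cspg4 at 65.6 ± 3.26 and Neu4 at 63.3 ± 11.2, with Bmp4 at 43.7 ± 3.28 and Enpp6 at 32.1 ± 6.87 the lowest. Neighbours in this order whose libraries overlapped were Pllp and Olig2, Olig2 and Sox10, Gpr17 and Pdgfra, Cspg4 and Neu4, and Bmp4 and Enpp6. Olig1 stood clear of the other members, and Bmp4 and Enpp6 stood at the low end.

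**Figure D1:**
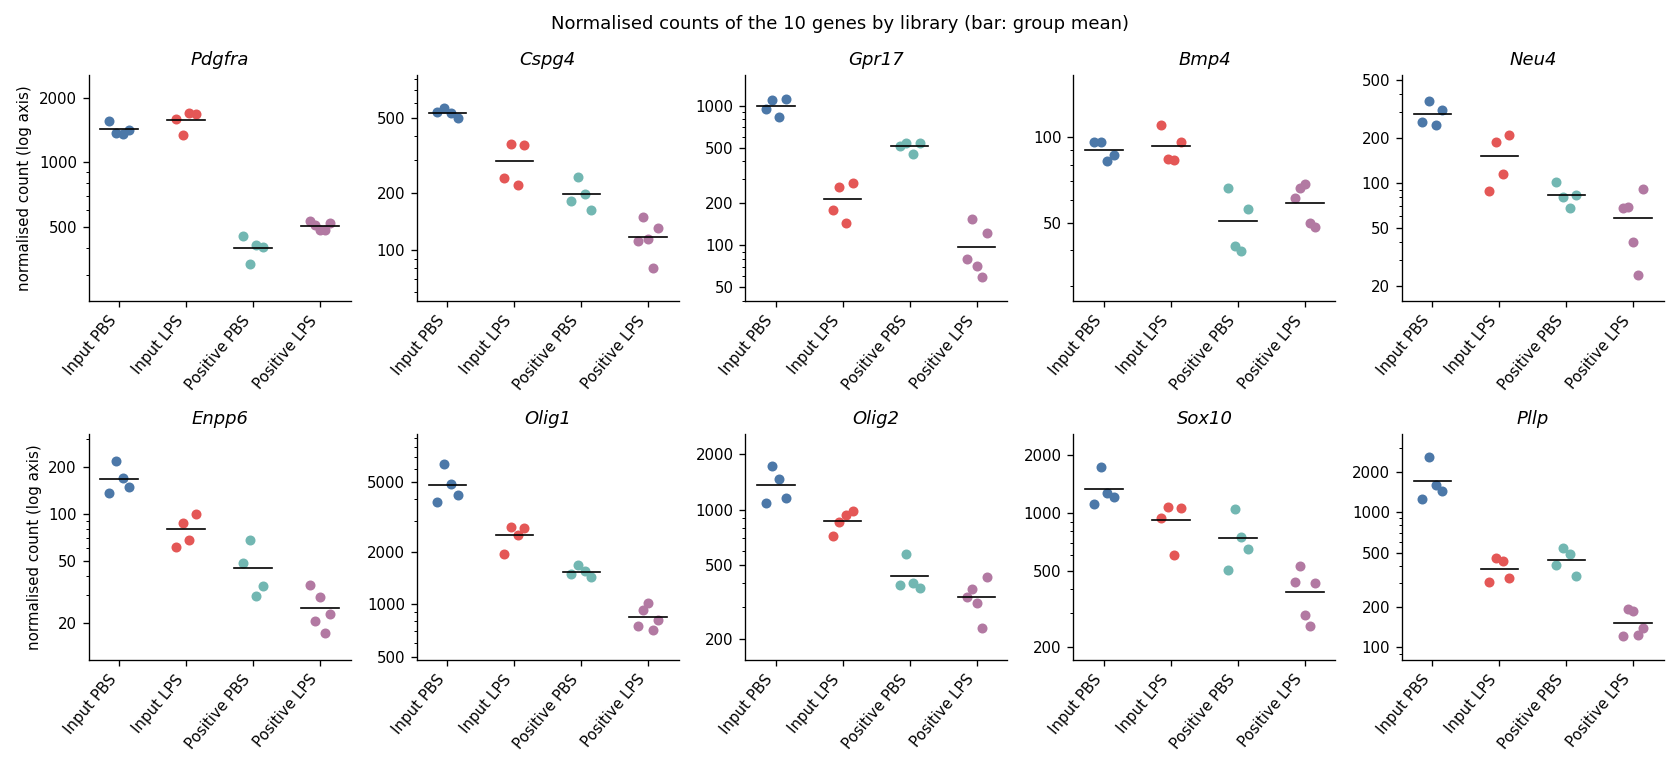
Normalised counts (y axis, log scale) of the 10 genes in each library of the 4 groups (x axis), with 1 point per library and a bar at the group mean. The Gpr17 and Pllp points of LPS animals lie below those of PBS animals in both fractions, whereas the Pdgfra points of LPS animals in the Positive fraction, 482 to 531, lie above those of PBS animals, 338 to 453.

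The promoters of 3 members are shown because these genes moved apart after LPS: Pllp was much lower, Olig2 moderately lower and Pdgfra not lower. Sequences are RefSeq windows on GRCm38.p6, 300 bases long around the start of the gene, read 5′ to 3′ on the strand of the gene. Capitals mark an E-box (CANNTG), the letters bound by basic helix-loop-helix factors such as Olig2, or a Sox motif (AACAAT, or its reverse complement ATTGTT).
Pllp, chr8:94696193-94696492, minus strand: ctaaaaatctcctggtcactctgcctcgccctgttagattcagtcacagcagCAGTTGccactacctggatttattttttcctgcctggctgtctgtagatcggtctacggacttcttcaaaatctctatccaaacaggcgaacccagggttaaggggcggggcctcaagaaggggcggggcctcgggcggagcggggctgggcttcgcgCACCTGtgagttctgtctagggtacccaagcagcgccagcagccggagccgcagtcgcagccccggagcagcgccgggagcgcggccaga
Olig2, chr16:91225300-91225599, plus strand: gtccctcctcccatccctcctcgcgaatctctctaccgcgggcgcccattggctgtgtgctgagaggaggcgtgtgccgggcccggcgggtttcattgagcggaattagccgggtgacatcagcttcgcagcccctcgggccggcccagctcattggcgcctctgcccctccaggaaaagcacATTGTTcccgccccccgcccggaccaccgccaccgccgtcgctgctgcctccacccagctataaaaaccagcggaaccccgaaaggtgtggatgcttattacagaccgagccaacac
Pdgfra, chr5:75152001-75152300, plus strand: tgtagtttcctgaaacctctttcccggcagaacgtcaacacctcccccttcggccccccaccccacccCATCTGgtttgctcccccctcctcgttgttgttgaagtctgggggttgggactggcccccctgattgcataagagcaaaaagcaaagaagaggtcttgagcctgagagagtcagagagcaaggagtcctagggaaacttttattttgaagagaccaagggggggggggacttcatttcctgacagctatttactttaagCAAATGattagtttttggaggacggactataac

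A window was at hand for 7 of the 10 genes. An E-box was present in 4 of these 7 (Pdgfra, Bmp4, Neu4 and Pllp), against 72.3% of all 32851 promoter windows of this length. The Sox motif AACAAT was in 2 of 7 (Enpp6 and Olig2), against 10.7% of all windows, and a further Sox motif, ACAAAG, was in 0 of 7, against 18.7%. Both strands were searched, and the motifs do not overlap one another in the sequences shown. The Olig2 window held 25 CpG dinucleotides and the Pllp window 20, against 5 for Pdgfra and a median of 7 over all windows. Among the windows not shown, Cspg4 held 17, Bmp4 12, Neu4 6 and Enpp6 4. Low numbers were thus also found in Neu4 and Enpp6, which were lower after LPS in the input. A match of letters is a description and shows no binding.

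In the input, LPS animals had lower levels of Gpr17 and Pllp by a wide margin, lower levels of Enpp6, Olig1, Neu4, Cspg4 and Olig2, and Pdgfra and Bmp4 levels that overlapped those of the PBS animals. The question behind this contrast is what systemic LPS changes in the RNA of the cleared brain homogenate, which mixes all cell types. In such a mixture, fewer cells of a type and less RNA per cell cannot be told apart. By the rule used for all genes (edgeR, adjusted p under 0.05 and a minimum fold change), 7 of the 10 genes were called, all lower, against 12.4% of the 14803 genes in either direction with 5.26% lower and 7.16% higher. Input groups did not overlap for 8 of the 10, all lower in LPS, against 11.5% of all genes. Sox10 was the gene without overlap that was not called. Because this contrast took part in the choice of genes, nothing is read from these counts.

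Gpr17, the premyelinating receptor, was at 939, 1098, 826 and 1108 normalised counts in the 4 Input PBS libraries and at 178, 259.6, 144 and 278 in the 4 Input LPS libraries. The highest LPS library was far below the lowest PBS library. Its fitted level was 4.62-fold lower (log2 fold change -2.21, SE 0.24), which placed it 16th from the lowest of 14803 genes. Pllp was at 1261, 2548, 1589 and 1425 in Input PBS and at 303, 455, 433 and 328 in Input LPS. It was 4.49-fold lower (log2 fold change -2.17, SE 0.22), in 17th place, with PBS animal 272 well above the other PBS animals.

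Enpp6, a gene of newly formed oligodendrocytes, was at 136, 218, 169 and 148 in Input PBS and 61.1, 87.7, 67.9 and 100.0 in Input LPS, a log2 fold change of -1.08 (SE 0.25). Neu4 was at 259, 359, 246 and 310.2 in Input PBS and 88.4, 191, 116 and 211 in Input LPS, a log2 fold change of -0.96 (SE 0.30). For both genes every LPS library was below every PBS library, but for Neu4 the gap was small and the LPS libraries spread widely. For Bmp4 no such gap was seen. It was at 95.7, 96.0, 82.6 and 86.2 in Input PBS and 110.4, 83.9, 83.3 and 95.8 in Input LPS, overlapping groups with a log2 fold change of 0.05 (SE 0.19).

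The precursor surface genes gave unlike values. Cspg4 was at 539, 562, 531 and 498 in Input PBS and 241, 363, 219.6 and 358 in Input LPS, a log2 fold change of -0.85 (SE 0.18) with no overlap. Pdgfra was at 1553, 1372, 1355 and 1416 in Input PBS and 1594, 1337, 1701 and 1674 in Input LPS, a log2 fold change of 0.15 (SE 0.10) with overlap. Both genes are also known from other cells, Pdgfra from fibroblasts of the meninges and vessels and Cspg4 from pericytes. The summed level of 5 fibroblast markers was 1714 to 2196 normalised counts in Input PBS and 2508 to 3889 in Input LPS, with 2 of the 5 called higher (Dcn and Col3a1) and none at 0 in any library. Most of the rise in the sum was Dcn, whose mean went from 588 to 2065, while Col1a2 was at 773 and 775, Col1a1 at 354 and 318 and Lum at 64.0 and 55.2 in PBS and LPS. The summed level of 9 pericyte and smooth muscle markers was 4072 to 4592 in Input PBS and 3326 to 3585 in Input LPS, with 2 of the 8 tested called lower. These were Vtn (mean 2084 and 1283 in PBS and LPS) and Rgs5 (551 and 302), while Pdgfrb (548 and 732), Notch3 (510.3 and 584), Abcc9 (225 and 256) and Kcnj8 (136 and 157) had higher means after LPS without being called. The ninth marker, Acta2, is listed at 0 in all 17 libraries. The part of these cells in the Pdgfra and Cspg4 values was not tested.

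Among the lineage transcription factors, Olig1 was at 3850.3, 6351, 4901 and 4243 in Input PBS and 1948, 2757, 2507 and 2734 in Input LPS, a log2 fold change of -0.96 (SE 0.15). Olig2, its neighbour, was at 1079, 1715, 1468 and 1157 in Input PBS and 719, 853, 933 and 977 in Input LPS, a log2 fold change of -0.64 (SE 0.18). Sox10 was at 1109, 1721, 1267 and 1205 in Input PBS and 939.8, 1068, 601 and 1054 in Input LPS, a log2 fold change of -0.53 (SE 0.24). None of the 3 overlapped between treatments, though for Olig2 and Sox10 the highest LPS library came close to the lowest PBS library. Within each library the Olig1 to Olig2 count ratio was 3.34 to 3.70 in Input PBS and 2.69 to 3.23 in Input LPS, with no overlap, but the ranges overlapped in the Positive fraction, at 2.88 to 3.87 in PBS and 1.86 to 3.28 in LPS. In the 17 fits that each left out 1 library, Neu4 lost its call in 9 (Input LPS 266 and 270, each of the 4 Input PBS libraries, and Positive PBS 272, 273 and 506), with log2 fold changes of -1.03 to -0.77. Olig2 lost it in 4 (Input LPS 266 and 267, Input PBS 272 and 273), with -0.63 to -0.51.

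Within the LPS group, animals 266 and 270 had lower input levels of Gpr17, Cspg4, Neu4, Enpp6, Olig1 and Sox10 than animals 267 and 507. For Pdgfra, Bmp4, Olig2 and Pllp the same animals did not separate in this way. This grouping of animals was seen in the values and was not tested.

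In the Positive fraction, which is enriched for RNA of Cx3cr1 cells, Gpr17, Pllp, Sox10, Enpp6, Olig1 and Cspg4 fell after LPS and Pdgfra rose, while Olig2, Neu4 and Bmp4 did not pass the test. The count was 7 of 10 genes called, 6 of them lower, against 33.8% of all genes in either direction with 14.9% lower and 19.0% higher (edgeR, Benjamini-Hochberg adjusted over all 14803 genes, also for each p below). Groups did not overlap for 4 genes lower in LPS (13.0% of all genes) and for 1 gene higher (17.1%). The Positive libraries come from the same animals as the input libraries.

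Gpr17 was at 514, 541, 453 and 541 in Positive PBS and at 79.7, 153, 71.0, 59.2 and 123 in Positive LPS, and fell by 2.39 on the log2 scale (SE 0.24, adjusted p 3.69e-07). That is 5.25-fold lower, the largest change among the 10 genes in this fraction. Pllp was at 409, 546, 489 and 339.9 in Positive PBS and at 120.4, 191, 184, 123 and 139 in Positive LPS, a log2 change of -1.55 (SE 0.21, adjusted p 1.71e-05). Neither gene overlapped between treatments.

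Sox10 was at 504, 1041, 753 and 650.5 in Positive PBS and 435, 529, 294, 257 and 433 in Positive LPS, a log2 change of -0.92 (SE 0.23, adjusted p 0.00385), with 1 LPS library above the lowest PBS library. Olig1 was at 1490.4, 1668, 1551 and 1439 in Positive PBS and 746, 928, 1021, 714 and 812 in Positive LPS, a log2 change of -0.86 (SE 0.14, adjusted p 8.56e-05). Its groups were well apart. Olig2 ranged from 376 to 579 in Positive PBS and from 231 to 435 in Positive LPS, and its log2 fold change of -0.37 (SE 0.18, 95% interval -0.76 to 0.02) did not pass the test (adjusted p 0.106). Leaving out Positive LPS animal 507, it was -0.48 and passed (adjusted p 0.0451).

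Cspg4 was at 181, 245, 198 and 163 in Positive PBS and 111, 150.2, 115, 80.4 and 130.2 in Positive LPS, a log2 change of -0.75 (SE 0.18, adjusted p 0.00349). Pdgfra was at 453, 338, 411 and 403 in Positive PBS and 531, 512, 484, 482 and 522 in Positive LPS, a log2 change of 0.34 (SE 0.09, adjusted p 0.00858). The surface genes thus changed in opposite directions, each without overlap. The Pdgfra rise lay just past the fold threshold. It lost its call without Positive PBS animal 272 (0.26), and without animals 506 and 507 it was 0.33 with an adjusted p of 0.0589. The summed fibroblast markers were 802 to 1027 in Positive PBS and 1268 to 1956 in Positive LPS, with 1 of 5 called higher, Dcn, whose mean went from 296 to 946 and which made up nearly the whole change of the sum. The pericyte and smooth muscle markers were 2748 to 5050 and 1990 to 2590, with 3 of 8 tested called lower (Rgs5, Vtn and Abcc9). Their part in the Pdgfra and Cspg4 values was not tested.

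Enpp6 was at 48.4, 67.5, 29.8 and 34.5 in Positive PBS and 34.9, 20.4, 29.0, 17.2 and 22.6 in Positive LPS, a log2 change of -0.87 (SE 0.27, adjusted p 0.0157). These are low levels with overlapping groups. With the animal as a block the Enpp6 change was -0.85 and missed the threshold (limma voom, adjusted p 0.0549), and without Positive PBS animal 272 it was -0.60 (adjusted p 0.0997). Neu4 ranged from 67.9 to 101 in Positive PBS and from 23.7 to 91.6 in Positive LPS, with a log2 fold change of -0.52 (95% interval -1.19 to 0.16, adjusted p 0.199). Bmp4 ranged from 39.6 to 66.2 and from 48.3 to 68.6, with a log2 fold change of 0.21 (95% interval -0.20 to 0.62, adjusted p 0.401).

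**Figure D2:**
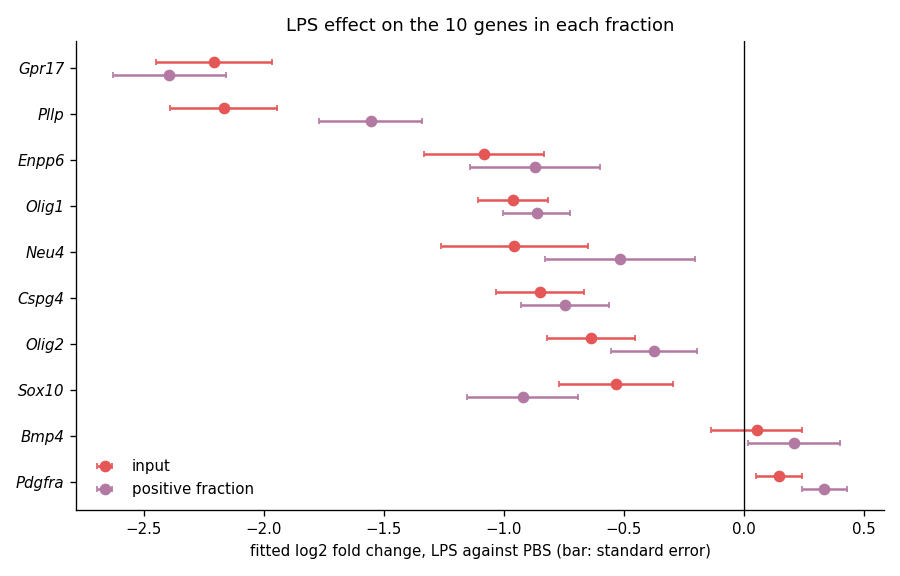
Fitted log2 fold change of LPS against PBS (x axis) for the 10 genes (y axis), in the input and in the Positive fraction, with bars of 1 standard error. Gpr17 is at -2.21 in the input and -2.39 in the Positive fraction, and Bmp4 and Pdgfra are the only genes right of 0 in either fraction.

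A difference between fractions in the size of the LPS effect was called for 0 of the 10 genes by edgeR, against 6.88% of all genes, with 0 at an unadjusted p under 0.05 and 0 called by DESeq2 or limma with a trend. The interval of the difference was -0.90 to 0.52 for Gpr17 on the log2 scale and -0.34 to 0.53 for Olig1. These intervals come from the fit without an animal term, which treats the libraries of an animal as independent. Pllp had the largest difference, 0.61 (SE 0.30, 95% interval -0.05 to 1.27, adjusted p 0.282), with the smaller LPS change in the Positive fraction. With the animal as a fixed term in edgeR, over the 16 libraries of the 8 animals with both fractions, the Pllp difference was 0.65 and was called (adjusted p 0.00947). The fit compares each animal with itself, and it called 1916 of 14818 genes. Pllp was chosen with its low input level after LPS known, and this difference contains that input contrast. No conclusion is therefore drawn from the call.

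All 10 genes were lower in the Positive fraction than in the input, in PBS and in LPS animals. In both treatments 10 of 10 were called lower (edgeR), against 18.8% of all genes in PBS and 25.8% in LPS animals. Every animal with both libraries had less of each gene in its Positive than in its Input library. In PBS animals the groups did not overlap for 10 of 10 genes (20.5% of all genes), and in LPS animals for 8 of 10 (20.1%), with Gpr17 and Neu4 overlapping.

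Members lay at different points of this range, though differences between genes were not tested. In PBS animals the Positive level was 48.8% to 54.8% of the input level of the same animal for Gpr17 and 45.5% to 60.5% for Sox10, but 21.4% to 32.5% for Pllp and 24.6% to 30.3% for Pdgfra. The fitted log2 fold changes were -0.95 for Gpr17 (SE 0.23, adjusted p 0.00266) and -0.84 for Sox10 (SE 0.24, adjusted p 0.00796). For Pllp it was -1.93 (SE 0.22, adjusted p 1.20e-06) and for Pdgfra -1.83 (SE 0.10, adjusted p 4.41e-11). The median over the 10 genes was -1.64, against a median of -2.46 for 17 mature myelin genes and -0.61 for 18 other OPC-enriched genes, of which 12 were called lower. Not every list was lower. Over 13 tested genes of committed and newly formed oligodendrocytes the median was 0.12, with 2 called lower and 3 higher. The 2 lower are a share below the 18.8% of all genes called lower. The share of all genes called higher is not given here. Over 15 regulators of differentiation the median was -0.54, with 8 called lower and 1 higher, beside the same 18.8% lower over all genes. How much of the counts of these genes in the Positive fraction came from cells without the tag was not tested.

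After LPS the Positive level of Pllp was 39.7% to 42.6% of the input, above the range of every PBS animal. The base of this share is the input level after LPS, which was known when Pllp was chosen. Pdgfra was at 28.4% to 38.3% and Gpr17 at 44.3% to 59.0%. Enpp6, which had the largest SD of the log2 ratio among the 10 genes in each treatment, was at 22.6% to 57.1% in LPS animals and 17.6% to 35.5% in PBS animals. The Sox10 value in PBS animals did not hold its call without animals 506 and 507 (-0.83, adjusted p 0.0532), and that of Gpr17 did not on the deposited log2 values (-1.08, adjusted p 0.0592).

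**Figure D3:**
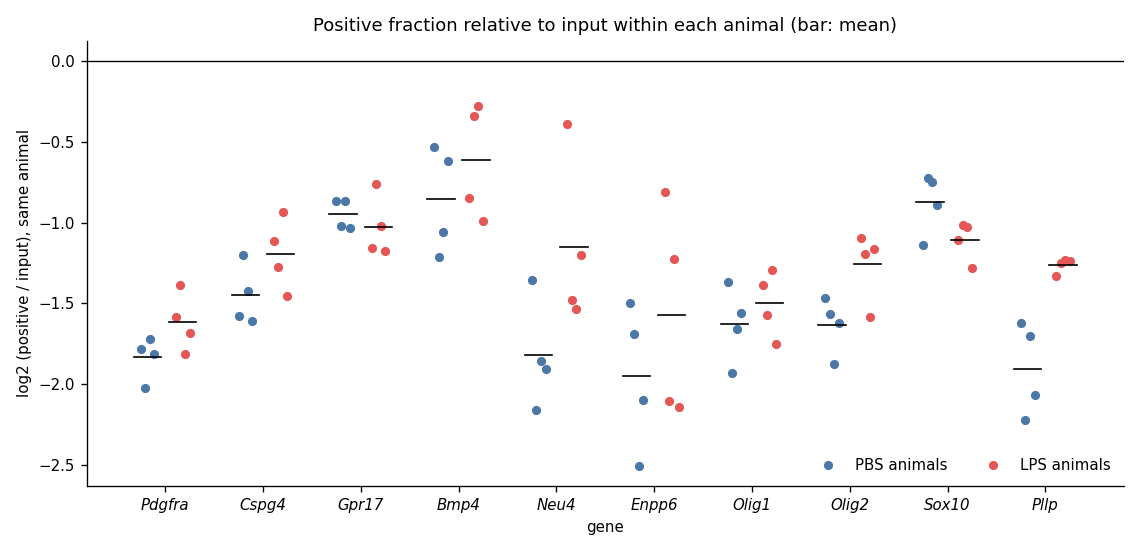
Log2 ratio of the Positive to the Input normalised count of the same animal (y axis) for each of the 10 genes (x axis), with 1 point per animal in 4 PBS and 4 LPS animals and a bar at the mean. All points lie below 0, and for Pllp the LPS animals, -1.33 to -1.23, lie above the PBS animals, -2.22 to -1.62.

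Ratios of 2 genes within a library need no scaling between libraries. The Gpr17 to Pdgfra count ratio, which sets the premyelinating receptor against the precursor receptor, was 0.605 to 0.801 in Input PBS and 0.0848 to 0.194 in Input LPS. For Positive libraries it was 1.10 to 1.60 in PBS and 0.123 to 0.299 in LPS. The Pllp to Pdgfra ratio was 0.812 to 1.86 in Input PBS and 0.190 to 0.341 in Input LPS, and 0.844 to 1.62 and 0.227 to 0.381 in the Positive fraction. The Cspg4 to Pdgfra ratio was 0.347 to 0.409 in Input PBS and 0.129 to 0.272 in Input LPS, and 0.399 to 0.724 and 0.167 to 0.293 in the Positive fraction. In each case the PBS and LPS libraries did not overlap within a fraction. Gpr17 and Pllp were chosen with their low input levels after LPS known, so nothing is read from the lack of overlap of their ratios in the input. How often ratios of other gene pairs overlap was not tested. The Gpr17 to Pllp ratio overlapped in the input, at 0.431 to 0.778 in PBS and 0.333 to 0.849 in LPS, but not in the Positive fraction, at 0.926 to 1.59 in PBS and 0.385 to 0.887 in LPS.

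**Figure D4:**
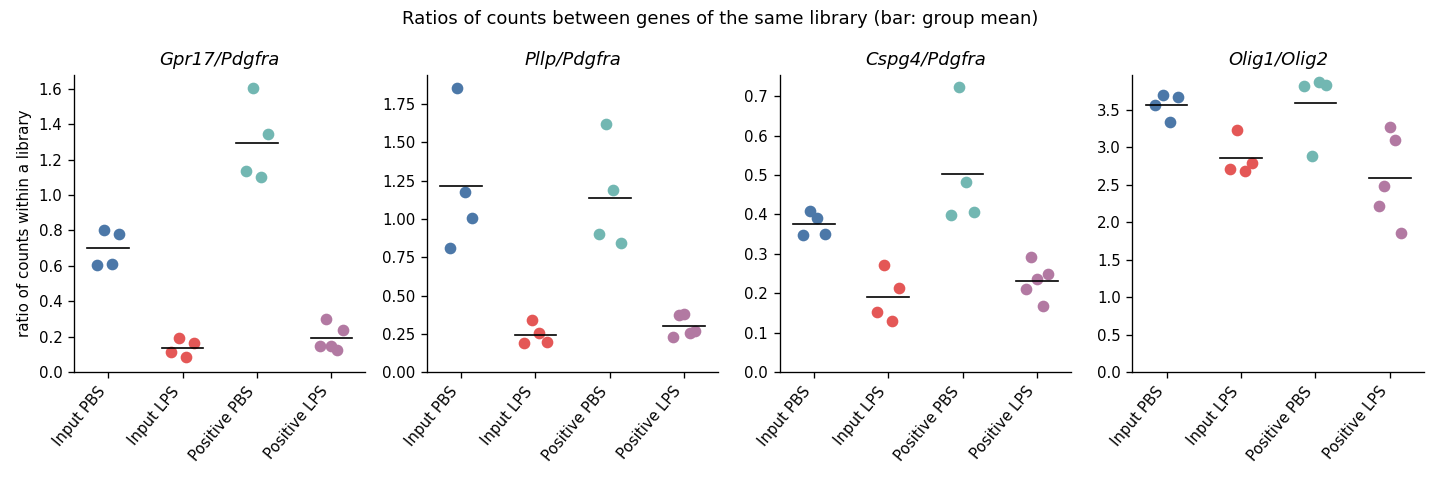
Ratio of the counts of 2 genes in the same library (y axis, from 0) for Gpr17, Pllp and Cspg4 over Pdgfra and for Olig1 over Olig2, in the 4 groups (x axis), with 1 point per library and a bar at the mean. In both fractions the LPS libraries lie below the PBS libraries for the 3 ratios over Pdgfra.

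Other genes of the lineage were taken from lists drawn up from general knowledge, with earlier results of these data known. Their counts and adjusted p values in the input are therefore descriptive. In each list the genes named are mainly those with the largest LPS change in the input. Of 18 further OPC-enriched genes, all tested, 6 fell and 0 rose in the input after LPS (median log2 fold change -0.25, range -1.15 to 0.16), beside 5.26% lower and a median of 0.00 over all genes. C1ql1, a secreted complement-related protein of OPCs, fell by 1.15 on the log2 scale (SE 0.24, adjusted p 0.00293). Cacng4, an auxiliary subunit of AMPA receptors, had a log2 change of -0.96 (SE 0.20, adjusted p 0.00285) and the matrix genes Emid1 and Matn4 had -0.84 and -0.81 (adjusted p 0.00219 and 0.00656). After pulldown 8 of the 18 fell and 0 rose (median -0.33), beside 14.9% lower over all genes.

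Of 15 genes of committed and newly formed oligodendrocytes, 14 were matched and 13 tested. Only Lims2 was called in the input, at -1.08 (SE 0.18, adjusted p 0.00042), beside 5.26% lower and 7.16% higher over all genes. Bcas1, a marker of premyelinating cells, had -0.52 (SE 0.22, adjusted p 0.131). Ust, a sulfotransferase, was at -0.29 with an adjusted p of 0.0417 but under the fold threshold, and Itpr2, a calcium channel of the endoplasmic reticulum, was at 0.25 (adjusted p 0.0604). The list median was -0.15. Among Positive libraries 2 of 13 fell, a share near the 14.9% of all genes called lower. These were Lims2 at -1.17 (adjusted p 2.90e-05) and Rras2 at -0.33 (adjusted p 0.0318). Lims2, which overlaps Gpr17 on the other strand, was not lower in the Positive fraction than in the input of PBS animals (0.26, adjusted p 0.233), whereas Gpr17 was.

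Of 17 regulators of oligodendrocyte differentiation, 15 were matched and tested, and 6 fell and 0 rose in the input (median -0.16), beside 5.26% lower over all genes. Sox17, known also from endothelium, fell by 1.001 on the log2 scale (SE 0.20, adjusted p 0.00173), and Hes5, a Notch target, had -0.86 (SE 0.24, adjusted p 0.0232). Gpr37, a receptor of maturing oligodendrocytes, had -0.83 (SE 0.15, adjusted p 0.000706) and Sox8, a relative of Sox10, -0.63 (SE 0.16, adjusted p 0.0113). After pulldown 7 fell, beside 14.9% of all genes, and 2 of 15 rose, a share below the 19.0% of all genes. The latter were Id2, an inhibitor of basic helix-loop-helix factors, at 0.59 (adjusted p 0.00119) and Notch1 at 0.53 (adjusted p 0.000928).

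The ligands and receptors around Bmp4 and Pdgfra gave a mixed picture. Of 20 genes of the BMP pathway, 18 were tested, with 4 lower and 3 higher in the input (median 0.04), beside 5.26% lower and 7.16% higher over all genes. The ligand Bmp6 fell by 0.91 on the log2 scale (SE 0.15, adjusted p 0.000297), while the target genes Id1 and Id3 rose by 0.73 and 0.57 (adjusted p 0.0156 and 0.00946), and the antagonist Grem1 was at 0.67 (adjusted p 0.193). Of 5 further PDGF pathway genes 1 was called in the input, beside 12.4% of all genes, the ligand Pdgfb at -0.51 (SE 0.14, adjusted p 0.0227). Pdgfa, the ligand of Pdgfra, was at -0.11 (adjusted p 0.679), Pdgfd at 0.09 (adjusted p 0.848) and the receptor Pdgfrb at 0.42 (adjusted p 0.0686).

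Of 17 genes of mature myelin, 12 fell and 0 rose in the input (median -0.73), beside 5.26% lower over all genes. Opalin, a myelin membrane protein, was at -2.01 (adjusted p 0.000616), Ugt8a, which makes the myelin lipid galactosylceramide, at -1.87 (adjusted p 2.31e-07), and the connexin Gjb1 at -1.44 (adjusted p 0.000424). After pulldown 7 of 17 fell (median -0.45), beside 14.9% lower over all genes. The LPS effect differed between fractions for 1 of the 17, a share below the 6.88% of all genes. This was Ugt8a, by 1.13 (SE 0.21, adjusted p 0.00329). Ugt8a was named for its LPS change in the input, which this difference contains, so no conclusion is drawn from the call. The lists were set side by side as counts and medians, and the differences between lists were not tested.

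**Figure D5:**
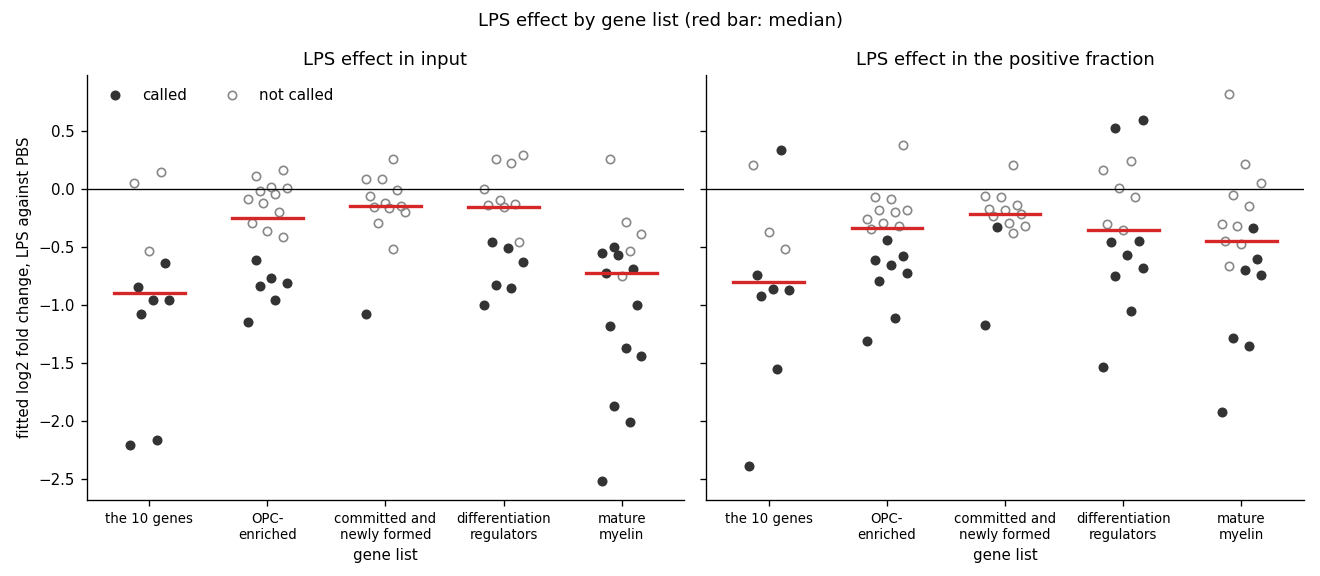
Fitted log2 fold change of LPS against PBS (y axis) for the genes of 5 lists (x axis), in the input (left) and the Positive fraction (right), with 1 point per gene, filled where called, and a red bar at the list median. The input medians are -0.90 for the 10 genes, -0.25 for OPC-enriched genes, -0.15 for committed and newly formed genes, -0.16 for regulators and -0.73 for mature myelin genes.

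Likeness to Gpr17 was measured over the 17 libraries as the root mean square difference of log2(normalised count + 1), after each gene was set relative to its Input PBS mean. Among 12601 other genes that averaged 100 normalised counts or more, the nearest were Fabp7 (0.517), a fatty acid binding protein of glia, Ogn (0.589), an extracellular matrix proteoglycan, and Ppp1r3g (0.679), a regulator of glycogen synthesis. Mog (0.719), a protein of the outer myelin sheath, and Slc22a8 (0.729), an organic anion transporter, came next. Mean Fabp7 levels were 1133 in Input PBS, 373 in Input LPS, 629 in Positive PBS and 165 in Positive LPS. Among the 10 genes Pllp was nearest to Gpr17 (0.618), and Pdgfra (1.66) and Bmp4 (1.92) were the farthest. Gpr17 and Pllp had both stood out in the input before the choice of genes, so nothing is read from their nearness.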

How the data were processed

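RNAseq libraries of cleared homogenate (Input) and of the TRAP pulldown (Positive) were used. The authors trimmed reads, aligned them by strand to mm10 in Strand NGS and counted them over RefSeq models. The deposited values are estimated counts, and 81.7% of those above 0 were not whole. The deposited log2 values are the authors' DESeq-normalised values relative to Input PBS. Estimated counts were rounded. Size factors were medians of ratios over 15766 genes (0.766 to 1.32). The genes kept had more than 20 normalised counts throughout at least 1 group, and were fitted with edgeR 4.0.16 (quasi-likelihood, R 4.3.3), with 1 mean per group over 17 libraries and 13 residual degrees of freedom. Calls needed a Benjamini-Hochberg adjusted p below 0.05 and a fold change above 1.25. The study's own test, an analysis of variance by fraction and treatment, was replaced because the values are counts. The script was tested on simulated data.

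The input library of animal 271 (1252 counts) was left out. Both libraries of an animal share its number, and their deviations from the group means correlated in each of 8 animals (0.162 to 0.519). The main fit nevertheless had no animal term. Only the fits with the animal as a block or as a fixed term used the pairing. Alternatives were TMM, DESeq2 1.42.0, limma 3.58.1 with a trend on log2(normalised count + 1), voom with the animal as a block (correlation 0.445), the animal as a fixed term, no filter, all 18 libraries, only the libraries compared, sex as a covariate, leaving out animals 506 and 507, the deposited log2 values, and leaving out each library.

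The 10 genes and the gene lists were chosen with earlier results of these data known. Genes named besides the 10 were up to 4 per list with the largest LPS change in the input, the 5 nearest to Gpr17, and, chosen after their values were seen, Rras2, Id2, Notch1 and members of the fibroblast and pericyte marker lists. A further gene under this rule is not reported here. Promoters are from RefSeq (GRCm38.p6).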

Additional observations from a re-analysis of the deposited data

Results flagged for a closer look

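Of the 40 groups of libraries examined, 10 genes in 4 groups, 1 held a library far from the others. Olig2 in Positive PBS was at 579 normalised counts in animal 272 and at 376 to 401 in the other 3 animals. Chance flags about 5% of such groups. The cause was not tested.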

How the results depend on the processing

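The number of the 10 genes called in the input was 5 to 7 when 1 library was left out and 5 to 8 under the other alternatives, against 7. In the Positive fraction it was 5 to 8 and 6 to 7, against 7, and for Positive against input 10 and 9 to 10 in PBS animals and 10 throughout in LPS animals, against 10. For the difference between fractions it was 0 in all fits but 1, the replicate block with the animal as a fixed term, where it was 1 (Pllp).

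Of 1370 values of single genes under alternatives, 9 lost a call, 2 gained one, 3 reversed and 1356 did none of these. Calls lost or gained in the input, where no test is given, are not in these counts, and the last number holds input values that moved by less than the SD between replicates with no called gene changing sign. Bmp4 there, which was not called, went from 0.05 to -0.034 without Input LPS animal 266. The 3 reversals were in the difference of the LPS effect, which was not called. Leaving out 1 library, the Cspg4 difference ran from -0.018 (without Input LPS animal 270) to 0.23, and the Olig1 difference from -0.062 (without Input PBS animal 272) to 0.19, with -0.0068 without Input LPS animal 266.

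In the Positive fraction, the Pdgfra rise missed the fold threshold over the compared libraries alone (0.32) and with sex as a covariate (0.30). The Enpp6 fall was -0.78 on the deposited log2 values (adjusted p 0.0635, limma). Among the input calls, Sox10 was gained with voom and the animal as a block, and Neu4 was lost in 4 and Olig2 in 1 of the alternatives that did not leave out a single library. Apart from Sox10 in the input, Enpp6 in the Positive fraction (lost) and the Pllp difference (gained), the replicate block changed no call of the 10 genes. The fixed animal term gives no LPS effect within a fraction, and the fit on compared libraries alone gives no difference between fractions. With 4 or 5 animals a group, the intervals of the LPS effect within a fraction span over 1 log2 unit for Enpp6 and Neu4. The same holds for Gpr17, which is at a higher level, whereas those of Bmp4, also low, are narrower.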
